A study of Mus musculus with 21 samples.

Results

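The primary cilium is a single antenna-like projection of the cell surface, and 42 genes that build it or control traffic through it are described here in sorted mouse medulloblastoma cells. The genes were chosen by name for their known roles, and every probe set whose platform symbol is one of them was taken over all 21 arrays. Of the 42, 39 had a probe set in the table used, and 38 of these were bright enough to be tested, out of 12367 genes tested in all. Arl6, Arl13b and Rpgrip1l had none listed, and both probe sets of Bbs10 were too dim to pass the signal filter, with median signals of 7.77 and 14.7 against a limit of about 15.5.

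Inside the cilium, cargo moves on intraflagellar transport (IFT) trains. IFT-B complexes carry it outward with kinesin motors, IFT-A complexes carry it back with dynein, the BBSome (named after Bardet-Biedl syndrome) is an adaptor that takes membrane proteins out, and a gate called the transition zone decides what enters at the base. In vertebrates Hedgehog signalling runs through this organelle: the receptor Patched sits in the cilium and keeps Smoothened out, and loss of Patched lets Smoothened accumulate there and activate the Gli transcription factors. Granule neuron precursors of the cerebellum, the cells from which Patched tumours arise, carry a primary cilium and need it to respond to Hedgehog.

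All samples were primary medulloblastoma cells of Patched mice, taken from the cerebellum and sorted by CD15, a carbohydrate antigen of the cell surface. From tumours titled Math1-GFP there were 4 CD15 positive arrays (numbers 1, 5, 7 and 9) and 5 CD15 negative arrays (numbers 2, 4, 6, 8 and 10). From tumours titled conventional there were 6 CD15 positive and 6 CD15 negative arrays, numbered 1 to 6 here, where number 1 stands for the array without a number. Math1 (Atoh1) is the transcription factor of granule neuron precursors, and a Math1-GFP reporter puts green fluorescent protein under Math1 regulatory sequence. The labels give neither the Patched genotype nor the age or number of mice, do not say whether GFP was used in sorting, and describe the Math1-GFP tumours as conventional too; the titles were followed. Nothing states that arrays of a group came from separate mice, and the p-values therefore cover only the spread among these arrays, which may be technical.

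Values are probe set signals on a linear scale. Each gene is represented by its brightest probe set, differences are on the log2(signal + 32) scale, and a gene was called when the Benjamini-Hochberg adjusted p of limma over all 12367 genes lay under 0.05. A fold change on this scale understates the change of a dim gene. Signals are compared between arrays for 1 probe set, never between genes. No read depth exists for an array, and the number of arrays limits the precision. The list for granule neuron precursors held Atoh1, Zic1, Zic2, Pax6, Barhl1, Meis1, Neurod1, Nhlh1, Mycn and Gli1, not all of them confined to precursors. All 10 were measured, with scores (mean log2 values) of 10.16 to 10.79 in Math1-GFP arrays and 9.73 to 10.55 in conventional arrays. Of 20 markers of motile cilia and ependymal cells, which carry many beating cilia, only 7 were tested. The other 13 were too dim or had no probe set listed. Scores of the 7 were 6.37 to 6.97 in Math1-GFP arrays and 5.71 to 7.25 in conventional arrays. None of the 7 was called in any comparison. Math1-GFP CD15 positive array 1 and CD15 negative array 2 stood apart: their mean correlations with the other arrays of their group were 0.931 and 0.952, against 0.955 to 0.958 and 0.968 to 0.971 for the rest, and results are given without them where that matters. They are also the only Math1-GFP arrays whose titles lack the suffix e1. Some conventional titles lack it too, and the labels do not say what it marks.

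Ciliary genes are widely known as targets of the RFX transcription factors, which bind a paired motif, the X-box. It is shown here because some members hold it and it did not enter their choice. In RefSeq promoters (build GRCm38.p6, 250 bases before to 50 after a gene's start), 39 members had a sequence. The motif searched, on both strands, was GTTNCC, a spacer of 1 to 3 bases and GGNAAC. It was found in 5 of the 39 members (12.8%) and in 244 of 27025 genes with a promoter in the table (0.903%). A shorter search for GTTGCCA, on both strands, which overlaps the first motif in part, matched 8 of the 39 members (20.5%) and 5.02% of all genes. A Gli site, GACCACCCA, was found in none of the 39 member genes and in 0.289% of all genes. At so low a share, no match among 39 genes is the likely outcome, so this count does not set the members apart. All motif matches here are matches of letters in a window, not sites of binding. The 5 X-box matches stand in capitals, 5′ to 3′ on the gene's strand, each with up to 23 bases of its surroundings on either side.
Bbs7: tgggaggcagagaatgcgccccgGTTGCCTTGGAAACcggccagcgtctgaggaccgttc
Ift57: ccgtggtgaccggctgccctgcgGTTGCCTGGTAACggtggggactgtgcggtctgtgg
Mks1: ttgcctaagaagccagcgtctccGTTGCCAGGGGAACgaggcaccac
Tctn1: gcgctaggctgtgactGTTGCCCGGGCAAC
Tctn3: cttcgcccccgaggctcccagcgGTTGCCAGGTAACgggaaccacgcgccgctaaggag
The windows lie at chr3:36613474-36613533 (minus strand) for Bbs7, chr16:49699211-49699269 (plus strand) for Ift57, chr11:87853168-87853214 (plus strand) for Mks1, chr5:122264411-122264440 (minus strand) for Tctn1 and chr19:40612336-40612394 (minus strand) for Tctn3. The match began 121 bases before the start of Bbs7, 60 before that of Ift57, 24 before that of Mks1 and 140 before that of Tctn3, and 37 bases after that of Tctn1. Of these 5 genes, Ift57 and Tctn1 were called between the tumour models and the other 3 were called in no comparison.

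The comparison that moved most cilium genes was between Math1-GFP and conventional tumours, averaged over the CD15 fractions. Of the 38 members tested, 14 were lower in Math1-GFP tumours and 2 were higher. Genes of the IFT-B train, the transition zone gene B9d1, the IFT-A gene Ift43 and the GTPase gene Arl3 were among the lower ones. The log2 fold changes of the 14 lower genes ran from -1.09 (Ttc8) to -0.31 (Ift81). This comparison called 39.2% of all genes, 20.5% lower and 18.7% higher, against 42.1% of the members, 36.8% lower and 5.26% higher. The members' share called is thus near the background, and their split leans to lower values, with a median log2 fold change of -0.22 against -0.01 over all genes tested. The labels add a different suffix to the titles of the 2 models, so the tumour model and whatever that suffix marks cannot be told apart. In bulk RNA, fewer cells of a type and less RNA per cell cannot be told apart either.

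**Figure D1:**
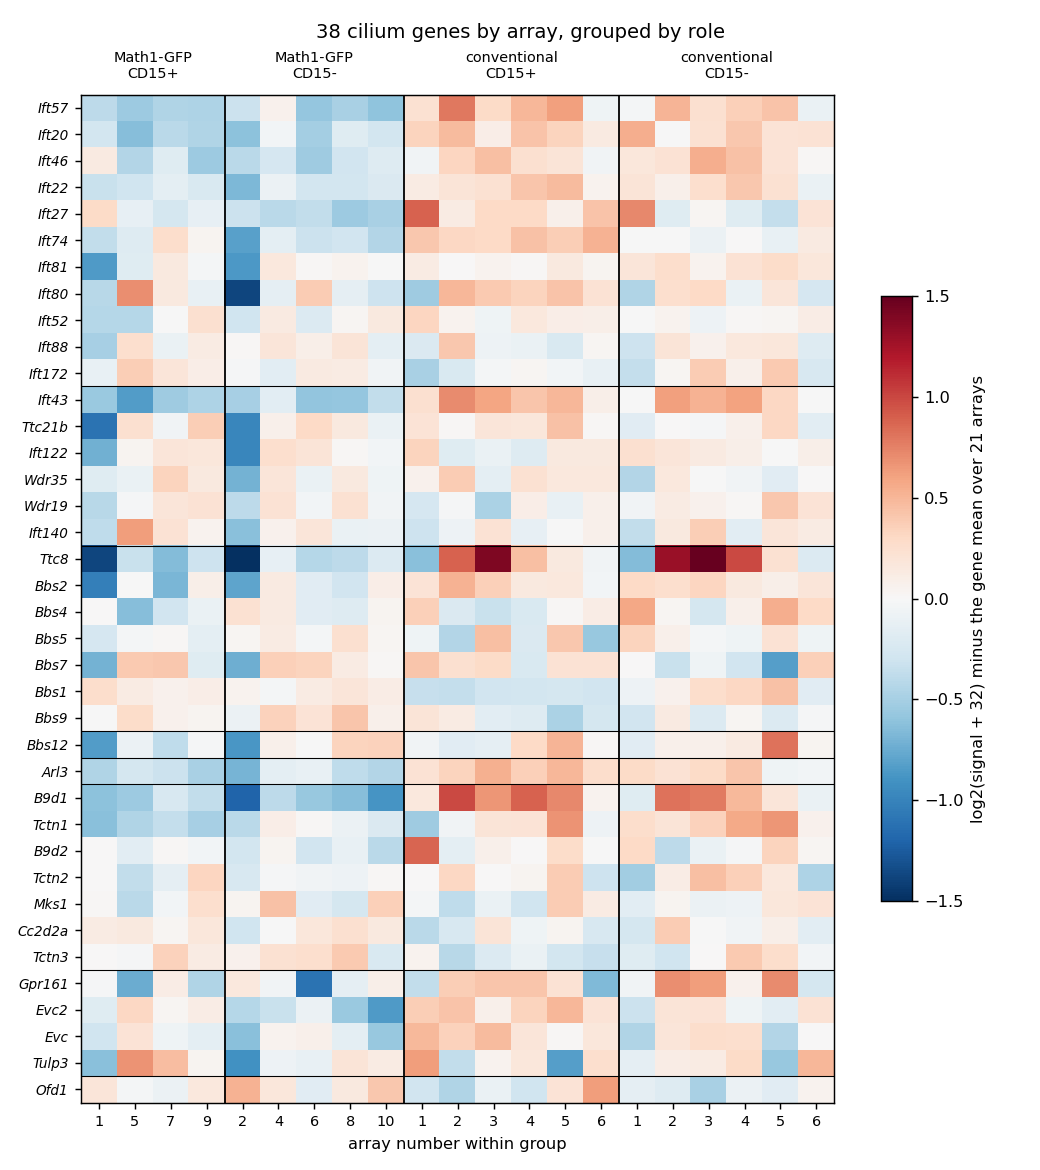
The 38 tested cilium genes (rows, grouped by role) on the 21 arrays (columns, by group), coloured by log2(signal + 32) minus the gene's mean over all arrays. The IFT-B rows from Ift57 to Ift74, Ift43, Arl3 and B9d1 are mostly blue in the 9 Math1-GFP arrays and mostly red in the 12 conventional arrays, and Math1-GFP arrays 1 and 2 are the bluest columns.

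Among the 11 IFT-B genes, 7 were lower in Math1-GFP tumours (63.6%, against 20.5% of all genes) and none was higher. Ift20, which links the Golgi to the cilium, had a lowest, median and highest signal of 191, 231 and 306 in the 9 Math1-GFP arrays, against 313, 390 and 473 in the 12 conventional arrays. The groups did not overlap, and the log2 fold change was -0.67 ± 0.09 (SE, limma adjusted p = 7.9e-06). Ift57, whose promoter holds the X-box shown above, had 239, 268 and 400 in Math1-GFP arrays, against 355, 486 and 682 in conventional arrays. Of the 9 Math1-GFP arrays, 8 lay below every conventional array, the exception being CD15 negative array 4, and the log2 fold change was -0.74 ± 0.11 (limma adjusted p = 3.6e-05). With its probe sets averaged, the dimmer of which ran the other way, it was -0.30 (adjusted p = 8.7e-04).

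Ift46, a subunit of the IFT-B core, had signals of 397, 485 and 659 in Math1-GFP arrays, against 572, 698 and 886 in conventional arrays. Here too 8 of 9 lay below all conventional arrays, and only Math1-GFP CD15 positive array 1 did not (log2 fold change -0.52 ± 0.10, limma adjusted p = 2.7e-04). Ift22, a Rab-like protein of the same core, had 285, 387 and 441 in Math1-GFP arrays, against 439, 552 and 669 in conventional arrays. Its highest Math1-GFP value was just above the lowest conventional one, and the log2 fold change was -0.49 ± 0.08 (limma adjusted p = 1.2e-04).

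Ift74 and Ift81 form the module of the train that binds tubulin. Ift74 had signals of 237, 357 and 535 in Math1-GFP arrays, against 405, 519 and 650 in conventional arrays (log2 fold change -0.42 ± 0.09, limma adjusted p = 7.3e-04). Of the 9 Math1-GFP arrays, 7 lay below all conventional arrays. Ift81 had 180, 348 and 395 in Math1-GFP arrays, against 354, 390 and 432 in conventional arrays (log2 fold change -0.31 ± 0.12, limma adjusted p = 0.047). Its 2 lowest values, both 180, were those of the arrays that stood apart. Without these 2 arrays the log2 fold change was -0.12 (adjusted p = 0.16), and with array weights it was -0.16 (adjusted p = 0.14). Among the numbered arrays it stayed at -0.31, with adjusted p = 0.072 unblocked and 0.095 with the array number as a block. Another Ift81 probe set, with a median signal of 150, was at 0.17 ± 0.12 in the other direction, and the mean of the gene's probe sets at -0.07 (adjusted p = 0.65). Leaving out 15 of the 21 arrays one at a time also ended the Ift81 call, with adjusted p up to 0.13; it held only without conventional CD15 negative array 3, Math1-GFP CD15 positive arrays 7 or 9, or Math1-GFP CD15 negative arrays 4, 6 or 8.

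Ift27, a Rab-like GTPase of the train that is known for bringing the BBSome out of the cilium, had signals of 660, 779 and 1197 in Math1-GFP arrays, against 756, 1096 and 1824 in conventional arrays. The groups overlapped, with 4 of 9 Math1-GFP arrays below all conventional ones, and the log2 fold change was -0.44 ± 0.12 (limma adjusted p = 0.0085). Its probe set is of the platform's x_at kind, whose probes can match other transcripts too. Another x_at probe set of Ift27 was at -0.41 ± 0.11. Its probe set not of that kind, with a median signal of 398, was at -0.13 ± 0.11 (limma adjusted p = 0.42 with all probe sets tested, unfiltered). The 4 IFT-B genes not called were Ift80 (log2 fold change -0.22 ± 0.19), Ift52 (-0.16 ± 0.09), Ift88 (0.01 ± 0.10) and Ift172 (0.12 ± 0.10). Ift88 and Ift172 are long-studied genes of Hedgehog signalling in the mouse, and neither was called between the models.

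Of the 6 IFT-A genes, Ift43 alone was called, and it was lower. That share of 16.7% called lay under the 39.2% of all genes. Its signals were 323, 404 and 533 in Math1-GFP arrays, against 596, 835 and 996 in conventional arrays. The groups did not overlap and left a gap, with a log2 fold change of -0.90 ± 0.10 (limma adjusted p = 1.5e-06), the smallest adjusted p of the 38 members. The other 5, Ttc21b, Ift122, Wdr35, Wdr19 and Ift140, lay between -0.21 and 0.00, with adjusted p of 0.33 or more. Ift140 and Wdr19, core IFT-A subunits, were at 0.00 ± 0.13 and -0.01 ± 0.10.

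**Figure D2:**
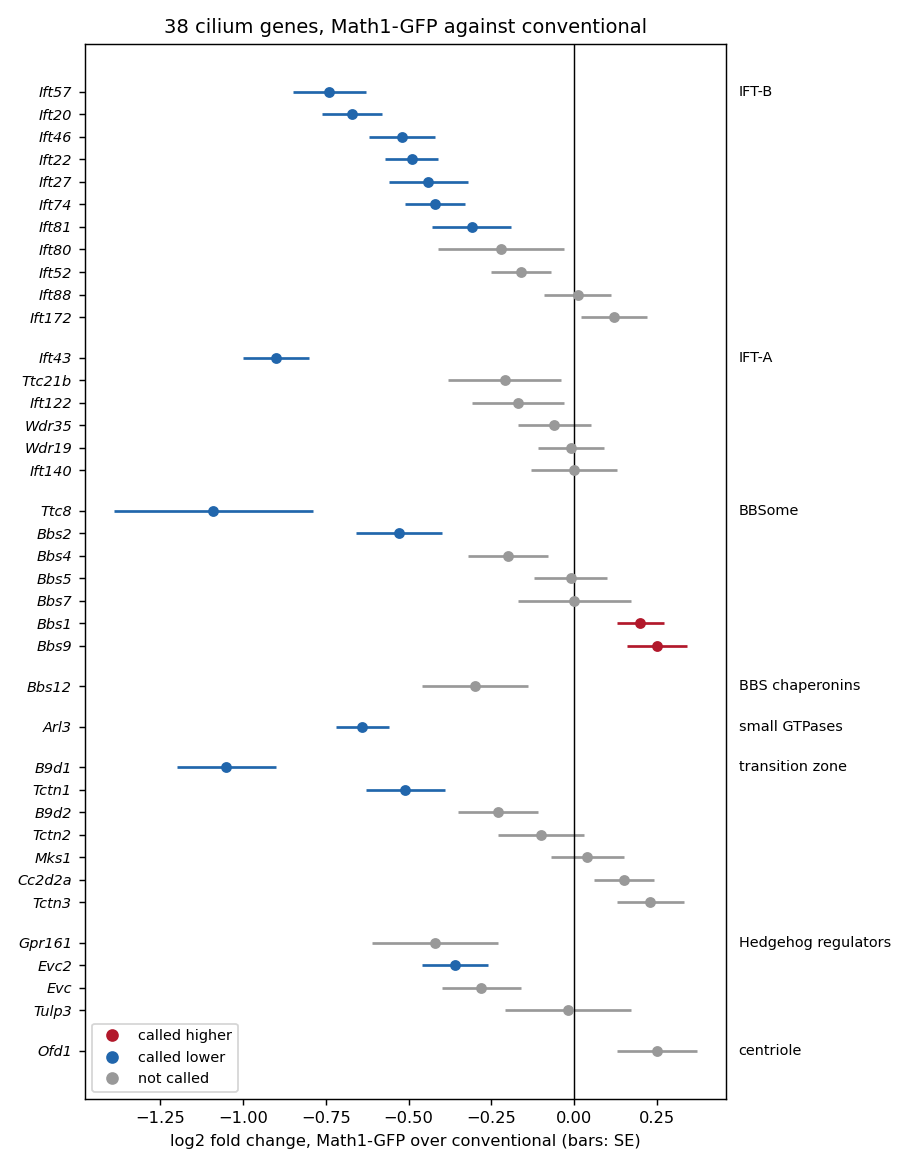
Log2 fold change of the 38 tested cilium genes, Math1-GFP over conventional tumours, grouped by role; bars are standard errors from the limma fit and colours show whether the adjusted p lay under 0.05. In the IFT-B group 7 of 11 points are called lower, in the IFT-A group only Ift43, and the BBSome group holds calls on both sides, from Ttc8 at -1.09 to Bbs9 at 0.25.

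The BBSome split in both directions: of 7 measured subunits, Bbs2 and Ttc8 were lower in Math1-GFP tumours, and Bbs1 and Bbs9 were higher. The share of its subunits called was 57.1%, against 39.2% of all genes. Bbs2, part of the core of the complex, had signals of 21.1, 64.5 and 86.5 in Math1-GFP arrays, against 73.2, 91.9 and 124 in conventional arrays. Of the 9 Math1-GFP arrays, 5 lay below all conventional ones (log2 fold change -0.53 ± 0.13, limma adjusted p = 0.0040). Without Math1-GFP arrays 1 and 2 the log2 fold change was -0.35 (adjusted p = 0.015).

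Ttc8, also called Bbs8, had the lowest fold change of the members, -1.09 ± 0.30 (limma adjusted p = 0.0072), and also the widest spread. Its signals were 67.5, 220 and 272 in Math1-GFP arrays, against 181, 390 and 1068 in conventional arrays. The range in conventional arrays followed the array number: numbers 2, 3 and 4 had 581, 848 and 422 in the CD15 positive fraction and 782, 1068 and 628 in the CD15 negative fraction, whereas numbers 1, 5 and 6 had 183, 334 and 289 in the positive and 181, 359 and 256 in the negative. B9d1 and Ift43 also had their lowest conventional values in arrays 1 and 6 of both fractions. The 2 arrays that stood apart held the lowest Ttc8 signals, and without them the log2 fold change was -0.82 (adjusted p = 0.036).

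Bbs9, a scaffold subunit, had signals of 52.6, 62.0 and 88.0 in Math1-GFP arrays, against 32.9, 47.6 and 70.2 in conventional arrays (log2 fold change 0.25 ± 0.09, limma adjusted p = 0.034). Bbs1, the subunit that binds the GTPase Arl6 and cargo, had 45.7, 53.4 and 63.5 in Math1-GFP arrays, against 30.3, 36.5 and 75.3 in conventional arrays (log2 fold change 0.20 ± 0.07, limma adjusted p = 0.039). Both increases were small and overlapped. By group means that of Bbs1 lay in the CD15 positive fraction, but the test of a difference between the fractions, given further below, did not pass. The mean log2 value of Bbs1 was 6.455 in Math1-GFP and 6.009 in conventional CD15 positive arrays. In CD15 negative arrays it was 6.397 in Math1-GFP and 6.451 in conventional tumours. After quantile normalization Bbs9 was at 0.11 (adjusted p = 0.37) and Bbs1 at 0.08 (adjusted p = 0.36), and Bbs1 was also lost among the numbered arrays (0.17, adjusted p = 0.078 unblocked and 0.056 with the array number as a block) and without the 2 arrays that stood apart (0.18, adjusted p = 0.080). Leaving out 1 array ended the Bbs9 call for 8 arrays, conventional CD15 positive 4 and 5, CD15 negative 1 and 3, Math1-GFP CD15 positive 5 and CD15 negative 4, 6 and 8 (adjusted p up to 0.080), and the Bbs1 call for 11 arrays, conventional CD15 positive 1 and 2, CD15 negative 1, 2 and 6, Math1-GFP CD15 positive 1, 5 and 9 and CD15 negative 6, 8 and 10 (adjusted p up to 0.077). Bbs4, Bbs5 and Bbs7 were at -0.20 ± 0.12, -0.01 ± 0.11 and 0.00 ± 0.17 and were not called. Bbs12, which helps to assemble the BBSome, was at -0.30 ± 0.16 (adjusted p = 0.14), with signals of 16.2, 55.0 and 79.8 in Math1-GFP arrays and 46.2, 59.7 and 123 in conventional arrays, which overlapped.

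Arl3 is the small GTPase that releases lipid-modified proteins inside the cilium. Its signals were 1246, 1559 and 1882 in Math1-GFP arrays, against 1940, 2505 and 2968 in conventional arrays. Every Math1-GFP array lay below every conventional array, and the log2 fold change was -0.64 ± 0.08 (SE, limma adjusted p = 7.7e-06). Among other genes of the same step, the carrier Pde6d was also lower (-0.52 ± 0.12, adjusted p = 0.0022) and the carrier Unc119b was higher (0.51 ± 0.10, adjusted p = 6.4e-04); both were picked out after their values were seen.

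At the transition zone, 2 of 7 measured genes were called, both lower. That share of 28.6% lay under the 39.2% of all genes called, of which 20.5% were lower. B9d1, a B9-domain protein of the tectonic complex, had signals of 90.7, 158 and 207 in Math1-GFP arrays, against 218, 390 and 528 in conventional arrays. There was no overlap, with a log2 fold change of -1.05 ± 0.15 (limma adjusted p = 1.9e-05). Tctn1, a tectonic protein of the same complex that is required for full Hedgehog output in the mouse, had 50.4, 67.1 and 103 in Math1-GFP arrays, against 55.4, 113 and 171 in conventional arrays. The Tctn1 groups overlapped, with a log2 fold change of -0.51 ± 0.12 (limma adjusted p = 0.0021). B9d2, Tctn2, Mks1, Cc2d2a and Tctn3 lay between -0.23 and 0.23 and were not called. Among the numbered arrays Tctn3 passed with the array number as a block (0.23, adjusted p = 0.046), and not without it. Between models that block takes the spread between array numbers out of the error, so this adjusted p may be too small.

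Of the 4 Hedgehog regulators, Evc2 was lower and the others were not called (25% called, against 39.2% of all genes). Evc2 and Evc form a complex near the base of the cilium that passes on the signal of Smoothened. Evc2 had signals of 44.6, 89.6 and 140 in Math1-GFP arrays, against 78.2, 127 and 164 in conventional arrays, with overlap (log2 fold change -0.36 ± 0.10, limma adjusted p = 0.0084). Evc was at -0.28 ± 0.12 (adjusted p = 0.070), and Gpr161, a receptor that restrains the pathway, at -0.42 ± 0.19 (adjusted p = 0.084). Among the numbered arrays both passed with the array number as a block and neither without it. The blocked values were -0.30 for Evc (adjusted p = 0.033) and -0.50 for Gpr161 (adjusted p = 0.023). Between models the block takes the spread between array numbers out of the error, so these adjusted p may be too small. Tulp3, which brings Gpr161 into the cilium, was at -0.02 ± 0.19 by its brightest probe set. Ofd1, a protein of the distal centriole, had signals of 112, 148 and 199 in Math1-GFP arrays and 83.3, 113 and 218 in conventional arrays, and its difference of 0.25 ± 0.12 did not pass (adjusted p = 0.11).

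**Figure D3:**
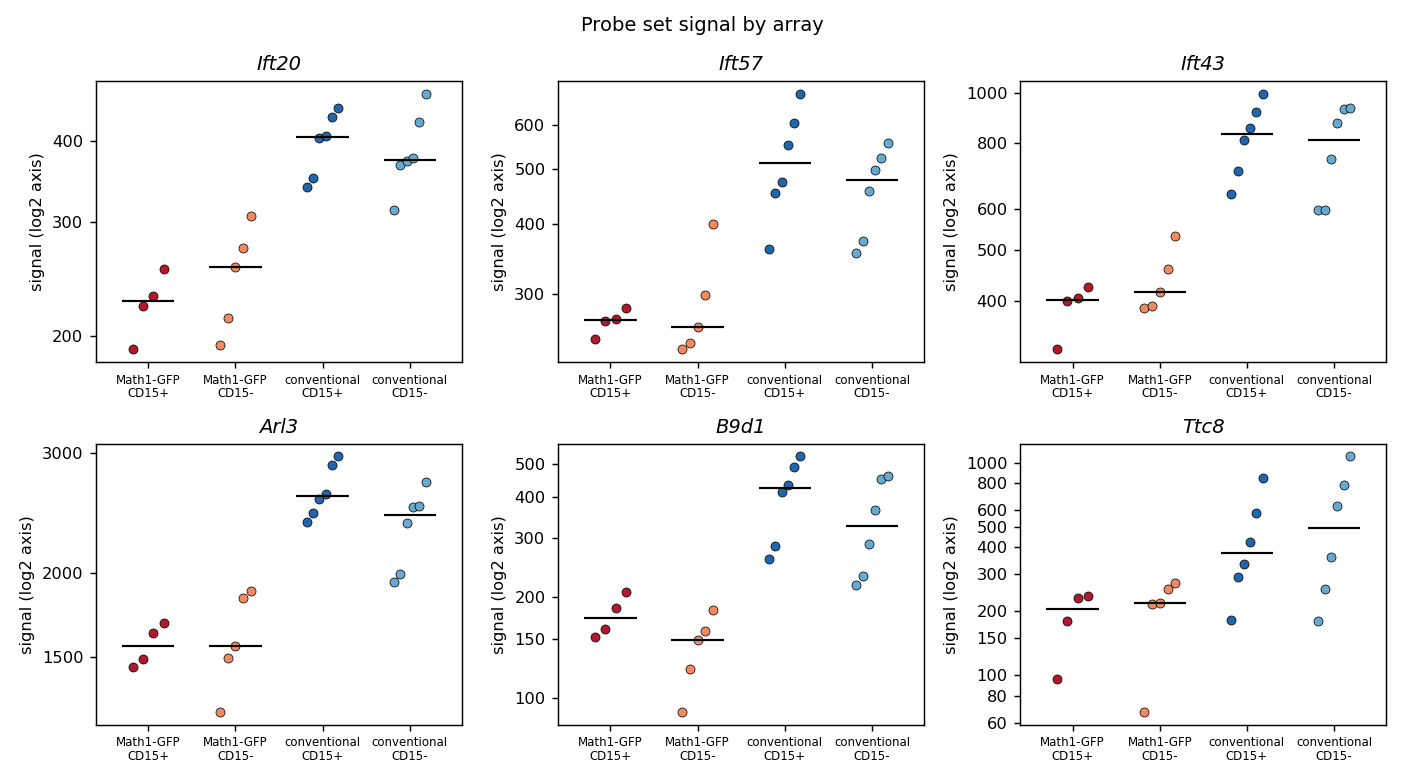
Signal (log2 axis) of 6 cilium genes in each array, with points for arrays and black lines for group medians; axes start near the lowest value of each gene. In Ift20, Ift43, Arl3 and B9d1 all 9 Math1-GFP points lie below all 12 conventional points, while in Ift57 and Ttc8 they overlap.

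Other measures are set beside the tumour models here, and their part in these results was not tested. The 3′ to 5′ signal ratio of Gapdh, a measure of RNA integrity and labelling, was 0.687 to 0.768 in Math1-GFP arrays and 0.782 to 0.965 in conventional arrays, with no overlap, and that of actin was 1.25 to 1.53 in Math1-GFP arrays and 1.40 to 1.95 in conventional arrays. All 9 measured microglial markers were called lower in Math1-GFP tumours (scores 5.83 to 7.62 in Math1-GFP arrays, 6.07 to 10.20 in conventional arrays). Between the models 18.7% of all genes tested were called higher and 20.5% lower, and the marker counts here stand beside these shares. Of 20 genes of G2 and M phase 8 were higher and 3 lower, of 15 neuronal genes 4 were higher and 2 lower, and of 10 granule neuron precursor markers 3 were higher and none was lower. Of the other lists, 2 astrocyte markers were higher and 2 lower of 9, 2 markers of the oligodendrocyte lineage were higher and 1 lower of 6, 2 of 8 endothelial and mural markers were lower, and none of 4 neutrophil markers was called. The lean to lower values was concentrated among bright probe sets: among the 4122 genes of brightest signal 8 of 10 members were lower, against 32.3% of all genes there, among the 4122 of middle signal 5 of 19 against 16.9%, and among the 4123 dimmest 1 of 9 against 12.3%. The 2 higher members were both among the dimmest.

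The choice of probe set and of scaling also mattered. Of 10 members with more than 1 probe set past the filter, 9 had another probe set whose difference ran the other way, namely Bbs4, Evc, Ift57, Ift80, Ift81, Ift122, Ttc21b, Tulp3 and Wdr35, and in Ift27 all agreed in sign. When every probe set was tested, 21 members were called by at least 1, 14 lower and 7 higher, against 52.9% of all genes counted the same way (23.5% with a lower probe set and 31.8% with a higher one). The 5 added ones were Wdr35 (0.46 ± 0.11), Ift80 (0.49 ± 0.13), Ttc21b (0.42 ± 0.15), Bbs4 (0.29 ± 0.08) and Tulp3 (0.28 ± 0.10), each higher by a dimmer probe set than the one used. With a gene's probe sets averaged, 13 members were lower and 2 higher, and the members' median was -0.07, against 0.04 over all genes. The pseudocount moved the dim members by over 1.5 times: with 1 in place of 32, Bbs1 was at 0.35, Bbs2 at -0.81 and Bbs9 at 0.39, and with the larger pseudocount tried Bbs2 was at -0.26, Tctn1 at -0.29, Evc2 at -0.20 and Bbs9 at 0.12, all still called, while Bbs1 at 0.08 was not (adjusted p = 0.091). After quantile normalization 20 members were lower and none was higher, and the split over all genes moved as well, to 24.7% lower and 14.5% higher. Without Math1-GFP arrays 1 and 2, 14 members were called, 13 lower and 1 higher, and the members' median was -0.10. Of the 16 calls, 13 held in every alternative that tested them and with each array left out, and the exceptions were Ift81, Bbs1 and Bbs9. Same-numbered conventional arrays were correlated (0.58 to 0.76), and no alternative counted such a pair as 1 sample. The adjusted p between models may therefore be too small, also for the calls that held.

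The second question was whether CD15 positive and CD15 negative cells of 1 tumour model differ in their cilium genes. Averaged over the models, Ift74 and Evc2 were higher in CD15 positive cells and no member was lower, so that 2 of 38 members (5.26%) were called against 9.74% of all genes (3.77% higher, 5.97% lower). In conventional tumours Ift74 was higher and Bbs1 was lower, 2 of 38 members against 8.13% of all genes (3.05% higher, 5.09% lower). In Math1-GFP tumours none of the 38 was called by limma, against 0.0404% of all genes, which is 5 genes, and 2 members had an unadjusted p under 0.05. In none of the 3 did the members' share exceed the background, and the members' medians of -0.02 (average), -0.01 (conventional) and -0.02 (Math1-GFP) lay beside 0.00, -0.02 and 0.00 over all genes.

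Ift74 was the member called in both the average and the conventional comparison. In conventional tumours its signals were 550, 586 and 650 (lowest, median and highest of 6) in CD15 positive arrays, against 405, 438 and 487 in CD15 negative arrays. The fractions did not overlap, and the CD15 positive array was the higher one in all 5 same-numbered pairs, by 0.32 to 0.48 on the log2 scale. The log2 fold change was 0.40 ± 0.11 (SE, limma adjusted p = 0.030). In Math1-GFP tumours the signals were 335, 381, 535 and 455 in CD15 positive arrays 1, 5, 7 and 9, against 237, 396, 345, 357 and 316 in CD15 negative arrays 2, 4, 6, 8 and 10. These fractions overlapped (log2 fold change 0.34 ± 0.13, adjusted p = 0.39), and the average over models was 0.37 ± 0.09 (adjusted p = 0.0085).

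The conventional Ift74 call was not firm. Among the numbered arrays its fold change stayed at 0.40, but the adjusted p was 0.074 with the array number as a block, and without it. It was 0.11 within numbers 2 to 5 and 0.74 within the other conventional arrays. When array 1, 4 or 6 of the positive fraction, or 2, 3, 4 or 5 of the negative one, was left out, it was at 0.38 to 0.41, with adjusted p of 0.051 to 0.072. The average over models held in every alternative and with each array left out, with adjusted p of at most 0.026.

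In conventional tumours Bbs1 was lower in the CD15 positive fraction. Its signals were 30.3, 32.9 and 34.2 (lowest, median and highest of 6) in CD15 positive arrays, against 38.7, 57.3 and 75.3 in CD15 negative arrays. The 6 CD15 positive values lay close together and below all CD15 negative ones, and the difference was negative in all 5 same-numbered pairs, between -0.70 and -0.13. The log2 fold change was -0.44 ± 0.10 (limma adjusted p = 0.0064), or -0.75 with a pseudocount of 1 in place of 32 and -0.20 with the larger one tried. It held with each array left out and with the array number as a block (-0.48, adjusted p = 0.0056), but within conventional arrays outside numbers 2 to 5 it was -0.20 (adjusted p = 0.81).

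In Math1-GFP tumours Bbs1 had signals of 63.5, 55.1, 51.5 and 53.2 in CD15 positive arrays, against 50.3, 45.7, 54.7, 57.7 and 53.4 in CD15 negative arrays. They overlapped, with a log2 fold change of 0.06 ± 0.11 (adjusted p = 0.95). The test of the difference between the models, an interaction term, called none of the 38 members and 0% of all genes (279 genes at an unadjusted p under 0.05). Bbs1 had the smallest unadjusted p of the members there, with a difference of 0.50 ± 0.15 (unadjusted p = 0.0026, limma adjusted p = 1.0), and it was the 1 member with an unadjusted p under 0.05. Next came Ift172 at 0.32 ± 0.20 and, close behind, Bbs7 at -0.43 ± 0.33 and Ift140 at 0.33 ± 0.25, all with adjusted p = 1.0.

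**Figure D4:**
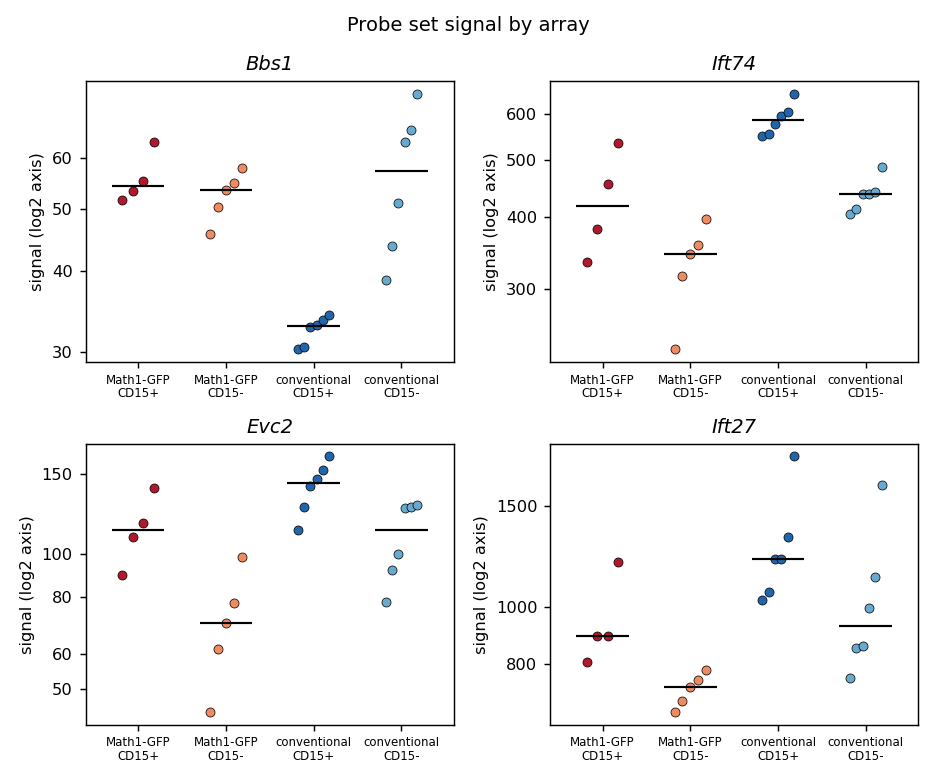
Signal (log2 axis) of Bbs1, Ift74, Evc2 and Ift27 in each array, with points for arrays and black lines for group medians; axes start near the lowest value of each gene. In conventional tumours the CD15 positive points of Bbs1 lie below, and those of Ift74 above, all CD15 negative points, and in Math1-GFP tumours the CD15 positive points of Ift27 lie above all CD15 negative points.

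Among the CD15 comparisons, Evc2 was called in the average over models alone. In conventional tumours its signals were 113, 144 and 164 in CD15 positive arrays, against 78.2, 113 and 127.7 in CD15 negative arrays, with overlap (log2 fold change 0.31 ± 0.13, limma adjusted p = 0.17). In Math1-GFP tumours they were 89.6, 140, 109 and 117 in CD15 positive arrays, against 70.3, 77.5, 98.2, 61.6 and 44.6 in CD15 negative arrays. The overlap there came from CD15 positive array 1 and CD15 negative array 6, and the log2 fold change was 0.52 ± 0.15 (adjusted p = 0.18), the smallest p of the members in that model. The average was 0.41 ± 0.10 (adjusted p = 0.011) and held in every alternative and with each array left out, with adjusted p of at most 0.032, although with the larger pseudocount tried it was 0.24. Of the 5 same-numbered conventional pairs, the CD15 positive array was the higher one in 3, with differences of -0.13 to 0.66. Its partner Evc was at 0.31 ± 0.16 in conventional tumours and 0.16 ± 0.18 in Math1-GFP tumours and was not called.

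Ift27 and Tctn1 missed the threshold in the average over models. Among the numbered arrays Ift27 passed with and without the array number as a block, and Tctn1 with it. Ift27 had signals of 1031, 1212 and 1824 in conventional CD15 positive arrays, against 756, 929 and 1626 in CD15 negative arrays, and was higher in all 5 pairs, by 0.22 to 0.49. In Math1-GFP tumours it had 1197, 891, 804 and 894 in CD15 positive arrays, against 779, 729, 750, 660 and 689 in CD15 negative arrays, with no overlap. The average was 0.34 ± 0.12 (limma adjusted p = 0.086), and 0.35 among the numbered arrays, both with the block (adjusted p = 0.0070) and without it (adjusted p = 0.018). Tctn1 ran the other way. In Math1-GFP tumours it had 50.4, 60.4, 67.1 and 58.1 in CD15 positive arrays, against 63.9, 103, 96.4, 86.2 and 76.7 in CD15 negative arrays, and the fractions overlapped through 1 array on each side. Its average was -0.32 ± 0.12 (adjusted p = 0.095), and -0.27 with the block (adjusted p = 0.033), and the 5 conventional pairs differed by -0.36 to 0.03. With the block, 4 members were thus called in the average (14.2% of all genes), 3 higher and 1 lower. Bbs4 depended on the probe set. The one used was at -0.26 ± 0.15 in conventional tumours (limma adjusted p = 0.35), and lower in CD15 positive arrays in all 5 pairs. With every probe set tested, unfiltered, a dimmer one was at -0.55 ± 0.13 there (adjusted p = 0.023). In the average it was at -0.37 ± 0.10 (adjusted p = 0.043). Further Bbs4 probe sets, at -0.26 and -0.34 in conventional tumours, were not called.

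**Figure D5:**
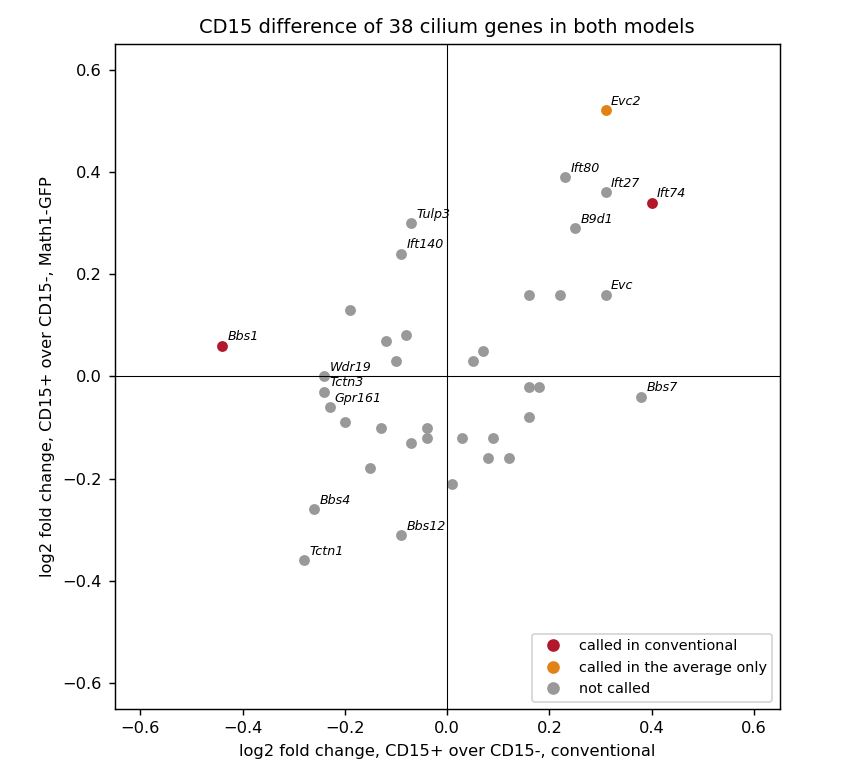
Log2 fold change of the 38 tested cilium genes between CD15 positive and CD15 negative cells, in conventional tumours (x axis) and Math1-GFP tumours (y axis), with 1 point a gene and colours for the calls. Ift74 and Evc2 lie to the upper right, and Bbs1 is at -0.44 on the x axis and 0.06 on the y axis.

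Several marker lists differed with CD15, and their part in the cilium results was not tested. Of 20 measured genes of G2 and M phase, 19 were higher in the CD15 positive fraction of conventional tumours, and the score was 10.05 to 10.49 in CD15 positive arrays and 8.84 to 9.85 in CD15 negative arrays. Of 15 measured neuronal genes, 11 were lower there (scores 8.29 to 8.95 in CD15 positive arrays, 9.33 to 10.16 in CD15 negative arrays). Over all genes 3.05% were called higher and 5.09% lower in that comparison. In Math1-GFP tumours the G2 and M phase score was 10.22 to 10.62 in CD15 positive arrays and 9.43 to 9.85 in CD15 negative arrays, and the neuronal score was 8.59 to 9.23 in CD15 positive arrays and 9.32 to 9.89 in CD15 negative arrays. Neither score overlapped between the fractions there, but gene by gene 1 of the 20 was called higher and none of the 15 was called. The astrocyte score there was 7.99 to 9.86 in CD15 positive arrays and 7.14 to 7.67 in CD15 negative arrays, and the granule neuron precursor score was 10.16 to 10.44 in CD15 positive arrays and 10.52 to 10.79 in CD15 negative arrays, with none of the 9 and none of the 10 genes called. In conventional tumours both scores overlapped between the fractions, with 1 granule neuron precursor marker higher, 2 lower and no astrocyte marker called. The granule neuron precursor list includes Neurod1 and Nhlh1, so its score does not measure precursor identity alone. The mean log2 value of the 38 cilium genes was 7.76 to 7.92 in CD15 positive and 7.69 to 7.92 in CD15 negative arrays of conventional tumours, and 7.39 to 7.68 in CD15 positive and 7.26 to 7.76 in CD15 negative arrays of Math1-GFP tumours, so that the fractions overlapped in both.

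A further 54 cilium genes outside the members were set beside them, of which 46 were tested. Between the models 7 were higher and 6 lower in Math1-GFP tumours (28.3%, against 39.2% of all genes), with a median log2 fold change of 0.01. Cep164, a protein of the distal appendages that dock the centriole to the membrane, had signals of 78.5, 93.1 and 128.2 in Math1-GFP arrays, against 202, 271 and 346 in conventional arrays, with no overlap (log2 fold change -1.19 ± 0.10, limma adjusted p = 5.3e-08). Cluap1, an IFT-B subunit, was lower (-0.66 ± 0.12, adjusted p = 1.6e-04). The kinesin subunit Kif3b was higher at 0.59 ± 0.09 (adjusted p = 2.7e-05), as was the dynein heavy chain Dync2h1 at 0.43 ± 0.08 (adjusted p = 2.8e-04). Other motor subunits were not called, with Kif3a at 0.22, Kif17 at -0.02, Kifap3 at -0.09 and Dync2li1 at -0.18. Kif3b had 88.5, 110 and 172 in Math1-GFP arrays, against 48.9, 63.4 and 79.5 in conventional arrays, with no overlap.

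Between the CD15 fractions, 2 of the 46 (4.35%) were called in conventional tumours and in the average over models, against 8.13% and 9.74% of all genes. Both, Cep83 and Cep89, were higher in CD15 positive cells and encode proteins of the distal appendages, as does Cep164, which was at 0.09 in both comparisons and not called. Cep83 had signals of 390, 514 and 560 in CD15 positive arrays of conventional tumours, against 275, 365 and 389 in CD15 negative arrays. The fractions just missed each other, and the log2 fold change was 0.47 ± 0.12 (limma adjusted p = 0.016), or 0.36 ± 0.09 averaged over models (adjusted p = 0.015). Cep89 had 191, 263 and 462 in CD15 positive arrays of conventional tumours, against 134, 167 and 202 in CD15 negative arrays with overlap (log2 fold change 0.65 ± 0.17, adjusted p = 0.022). In Math1-GFP tumours Cep89 had 261, 350 and 446 in CD15 positive arrays, against 199, 220 and 255 in CD15 negative arrays. It did not overlap there (0.53, adjusted p = 0.38), and its average over models was 0.59 ± 0.13 (adjusted p = 0.0062). None of the 46 was called in Math1-GFP tumours alone (2 at an unadjusted p under 0.05) or in the interaction (1, Tmem216 at -0.39, adjusted p = 1.0).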

How the data were processed

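RNA of 21 samples was measured on Affymetrix mouse whole-genome arrays of 45101 probe sets. The authors deposited a linear intensity for each probe set; how these were computed is not stated in the labels. Each array's mean was 150 once 2% of values were removed at each end. No 2 arrays were identical. The authors' deposited intensities were used as log2(signal + 32). The 64 control probe sets, probe sets with several (932) or no (9211) listed symbols, and those whose mean lay below the 40th percentile were left out. Taking each gene's brightest probe set gave 12367 genes. Of 60 probe sets of the members, 52 passed. Detection calls were not used.

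A model of 4 group means was fitted to all arrays (limma 3.58.1, R version 4.3.3, lmFit and eBayes with 17 residual degrees of freedom, two-sided, Benjamini-Hochberg within a contrast). It was tried on simulated data with independent arrays and changes only in the conventional CD15 positive group. Such data cannot test the fit for paired arrays or between models. The 5 contrasts were CD15 in each model, their average, the models, and the interaction. The conventional numbers 2 to 6 occur in both fractions. Deviations from group means correlated at 0.58 to 0.76 in the 5 same-numbered pairs and at most at 0.40 otherwise, so the numbers were taken to pair the arrays, and blocked values stand beside the calls they change. The main fit counts paired arrays as independent, so its p-values between models may be too small.

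The members, lists, motifs, alternatives and rules were chosen with earlier results of these data known. Values by array are given for members called anywhere, the 3 of smallest p where fewer were called, and 1 member of each role without a call; of other cilium genes at most 4 called ones per contrast are named by rule; Pde6d, Unc119b and further motor and distal appendage genes were added after their values were seen. Alternatives were quantile normalization, pseudocounts of 1 and 128, other filters and probe set rules, the contrast's groups alone, trend and robust estimation, array weights, blocks, conventional numbers 2 to 5 against the other conventional arrays (sets that whole-array correlations had shown), and leaving out arrays.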

Additional observations from a re-analysis of the deposited data

Results flagged for a closer look

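The lowest or highest array of a group lay far from the others in 4 of 84 group checks of the named members and the member mean, and about 1 in 20 such checks is expected to do so by chance. Ttc8 was low in Math1-GFP CD15 negative array 2, at 6.64 on the log2(signal + 32) scale (signal 67.5), against 7.95 in the next array. Ift81 was low in the same array, at 7.72 (signal 180), against 8.57. Bbs12 was high in conventional CD15 negative array 5, at 7.27 (signal 123), against 6.59. The mean of the 38 cilium genes was low in Math1-GFP CD15 positive array 1, at 7.39, against 7.64. The cause of these values was not tested.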

How the results depend on the processing

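Counts of cilium genes called moved as follows. In conventional tumours, where 2 were called, there was 1 with a filter at the 60th percentile (Bbs1 was then not tested), 1 with the replicate block among numbered arrays, 1 among those arrays unblocked, 1 within numbers 2 to 5, 0 within the other conventional arrays (where no gene of the whole table was called), and 4 with the block plus consecutive Math1-GFP numbers, a pairing the labels do not state (Bbs1, Ift74, Ift27 and Tctn3). In Math1-GFP tumours, with 0 called, there was 1 with array weights (Evc2, adjusted p = 0.042) and 3 with the block plus consecutive numbers (Ift27, Evc2 and Tctn1). In the average, with 2 called, there were 4 with probe sets of a gene averaged, 4 with array weights, 4 with the replicate block, 4 with the set of conventional arrays as a block, and 7 with the block plus consecutive numbers. Between models, where 16 were called, the count was 14 to 22 over 14 alternatives, and the interaction gave 0 in all 14. Leaving out 1 array gave 1 to 2 calls in conventional tumours, 0 to 0 in Math1-GFP tumours, 2 to 3 in the average, 14 to 17 between models and 0 to 0 in the interaction. By the probe set used, no called value turned its direction; other probe sets of 9 members ran the other way between models, as given above. The replicate block was fitted without the unnumbered conventional arrays. Leaving these out, unblocked, ended the calls of Ift74 in conventional tumours and of Bbs1 and Ift81 between models and added Ift27 in the average. Set against the same arrays unblocked, the replicate block added Tctn1 in the average and Evc, Gpr161 and Tctn3 between models, and changed no other member's call. The causes of these moves were not tested.

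Dim probe sets such as those of Bbs1 and Bbs9 lie near the pseudocount, so their fold changes depend on it. With 4 to 6 arrays a group, a difference that did not pass is not shown to be absent.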
